A study of Mus musculus with 3 samples.

Results

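Th1-like CD4 T cells were chosen by the RNA counted in each single islet leukocyte of NOD mice. A member was a T cell with a Cd4 UMI (a unique molecular identifier, the count of 1 captured RNA molecule), no Cd8a, Cd8b1, Foxp3, Nt5e, Eomes, Il21, Cxcr5 or Bcl6 UMI, at most 1 Cd79a UMI and at least 1 UMI of Ifng, Cxcr6 or Tbx21. Of 26947 deposited cells, 26142 had at least 1000 UMIs and under 10% mitochondrial UMIs, 18178 of these carried a Cd3d, Cd3e or Cd3g UMI and at most 1 Cd79a UMI, and 565 were members, with 121, 173 and 271 in replicates 1, 2 and 3. The 3 libraries came from the islets of wild-type mice of the NOD strain, which develops autoimmune diabetes, at 15 to 16 weeks of age. Islets of 2 to 3 mice were pooled for each library and live cells carrying CD45, the leukocyte surface protein, were sorted. There was 1 condition and no treatment. The libraries came from 2 independent experiments whose assignment to libraries the labels do not give, so the experiment could not be entered in a test.

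Th1 cells are the CD4 helper lineage that makes interferon-gamma. Interleukin-12, through STAT4, and interferon-gamma itself help to induce T-bet, the product of Tbx21, which opens Ifng and the chemokine receptor Cxcr3, while interleukin-18 raises interferon-gamma output in cells that carry its receptor. In the islets of NOD mice such cells are known for helping CD8 T cells and activating macrophages, and CXCR6, the receptor for CXCL16, marks activated T cells lodged in tissue.

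The 565 members were 2.14% ± 0.269 (SD, n = 3) of the cells kept. They were 14.0% of 866 conventional CD4 T cells in replicate 1, 8.64% of 2003 in replicate 2 and 9.45% of 2869 in replicate 3, where conventional means a Cd4 UMI without Cd8a, Cd8b1 or Foxp3 UMIs. The exact 95% binomial intervals were 11.7 to 16.5%, 7.44 to 9.95% and 8.40 to 10.6%, so the interval of replicate 1 lay above both others at full depth, and the mean was 10.7% ± 2.88 (SD, n = 3). These intervals cover counting error only. When every cell was first thinned to 1000 UMIs, the same gate held 11.7% ± 2.63 (SD, n = 3) of conventional CD4 T cells. The shares were 14.2, 11.8 and 8.95% of 380, 591 and 916 cells in replicates 1, 2 and 3. Their intervals, wider on these fewer cells, were 10.9 to 18.1%, 9.35 to 14.7% and 7.18 to 10.99%. That of replicate 1 overlapped both others, although its share stayed the highest. Thinning also removes UMIs of the genes that exclude a cell. With the study's limits on cells, 11.5 to 17.0% in replicate 1 overlapped 7.38 to 11.6% in replicate 2 and lay above 7.59 to 10.5% in replicate 3.

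Replicate 1 stood apart in more than this share. Its kept cells had a median of 4291 UMIs, against 6522 and 5606.5 in replicates 2 and 3. Mki67, a gene of dividing cells, stood at 90.4 CPM (UMIs of the gene scaled to a total of 1000000) in the members of replicate 1, against 23.5 and 28.2 CPM in the others. Lef1, a gene of naive T cells, stood at 64.3 CPM there, against 131 and 216 CPM. Between 12 and 29 cell barcodes were shared by each pair of libraries, and no member's barcode was shared.

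Membership rested on Cxcr6 far more than on Ifng or Tbx21. Cxcr6 was present in 438 members (77.5%), Ifng in 152 (26.9%) and Tbx21 in 98 (17.3%). Cxcr6 was the only gate gene in 335 cells, Ifng in 70 and Tbx21 in 46, whereas 62 cells carried Ifng and Cxcr6 without Tbx21 and 9 carried all 3. By UMIs the members held 2029 of Cxcr6, 367 of Ifng and 113 of Tbx21. The name Th1-like therefore rests, for most of these cells, on a tissue-lodging receptor and not on the cytokine or the factor that define the lineage.

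**Figure D1:**
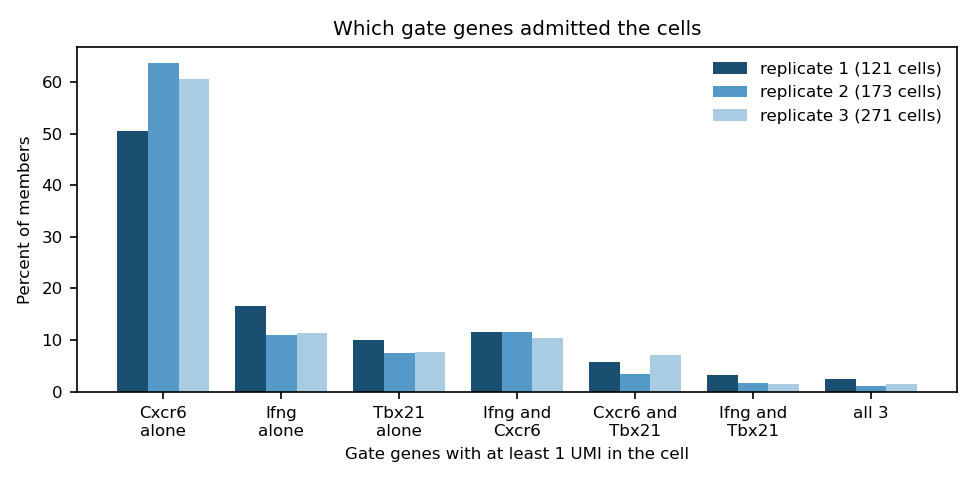
Percent of the members of each library (vertical axis) by the set of gate genes with at least 1 UMI in the cell (horizontal axis), with 1 bar for each of replicates 1, 2 and 3. Cells with Cxcr6 alone are the tallest bars in every library, and cells with all 3 genes are the fewest or near it.

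The genes of the gate chose the cells, so their levels are given as a description with no test. Cxcr6 stood at 398, 619 and 573 CPM in the members of replicates 1, 2 and 3. In the other conventional CD4 T cells together it stood at 64.8 ± 8.64 CPM, in the Eomes group at 343 ± 77.6, in Foxp3 T cells at 110.7 ± 39.0 and in CD8 T cells at 137 ± 10.6 (SD, n = 3). Ifng stood at 120, 106 and 90.5 CPM in the members, against 65.4 ± 48.3 CPM in the Nt5e group, 58.3 ± 13.6 in the Eomes group and 49.9 ± 18.3 in the follicular helper-like group described below (SD, n = 3), and the Nt5e cells of replicate 1, at 120 CPM, reached the level of the members. Tbx21 stood at 49.0, 23.5 and 29.3 CPM. Cd4 in the members, at 381 ± 50.2 CPM (SD, n = 3), overlapped its level of 327 ± 23.7 CPM in the other conventional CD4 T cells.

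Free RNA can give a UMI to a cell that does not make the gene, and B cells, which can also make some Tbx21 RNA, were taken as the reference. Free RNA and expression in B cells were not told apart. A Cxcr6 UMI was found in 0.727% ± 0.141 (SD, n = 3) of B cells and in 16.4% ± 0.497 of conventional CD4 T cells. An Ifng UMI was found in 0.354% ± 0.0660 and 8.11% ± 3.31 of the same cells. For Tbx21 the shares were 1.90% ± 0.327 and 4.62% ± 2.30, the closest of the 3 pairs. A UMI of any of the 3 genes was found in 2.84% ± 0.132 of B cells and 23.95% ± 5.265 of conventional CD4 T cells. These CD4 shares also count cells outside the members. Members with Tbx21 as the only gate gene were 46, beside 2800 cells that met the other conditions with no gate UMI. Whether these 46 stood above the share in B cells was not tested. Median depth was 4146, 6665 and 5744.5 UMIs in the B cells and 3984, 6010 and 5251 UMIs in the conventional CD4 T cells of replicates 1, 2 and 3.

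At the threshold itself, 186 members (32.9%) had exactly 1 UMI of the gate genes, 84 had 2 and 295 had 3 or more, with a highest count of 31. Just outside it, with 0 UMIs, were 2800 marker-negative CD4 T cells that otherwise met every condition. Ccl5, a chemokine of effector T cells, stood at 657, 412 and 629 CPM in the members with 1 gate UMI and at 3426, 4852 and 2409 CPM in those with 3 or more. In the marker-negative cells it stood at 462, 144 and 117 CPM. Nkg7, a granule protein of killer and Th1 cells, stood at 84.7 ± 53.3 CPM at 1 UMI and 547 ± 189 at 3 or more (SD, n = 3), against 34.4 ± 39.7 in the marker-negative cells. Lef1 ran the other way, at 201 ± 152 CPM, 101 ± 40.4 and 479 ± 169. The cells at 1 UMI thus lay nearer to the marker-negative cells than to the members with 3 or more in mean Ccl5 and Nkg7, while median depth ran from 3880 to 5858 UMIs at 1 UMI and from 3935 to 5881 at 3 or more.

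**Figure D2:**
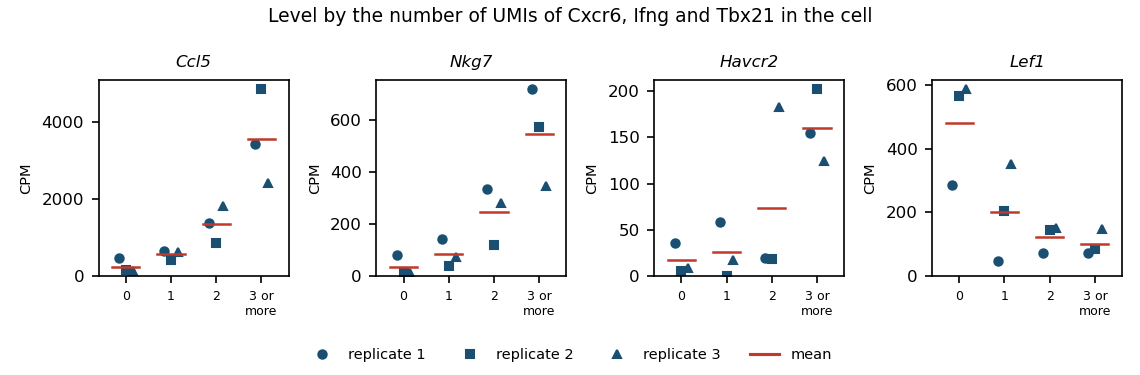
Level in CPM (vertical axes) of Ccl5, Nkg7, Havcr2 and Lef1 by the summed UMIs of Cxcr6, Ifng and Tbx21 in a cell (horizontal axes, where 0 is the marker-negative group), with 1 symbol per library and a line at the mean. Mean Ccl5 and Nkg7 are highest in cells with 3 or more gate UMIs, where Ccl5 runs from 2409 to 4852 CPM, and mean Lef1 is lowest there.

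Against the other 5173 conventional CD4 T cells of the same libraries, the members showed an effector profile with Th1 features beyond the gate. Both interleukin-18 receptor chains, the interleukin-12 receptor chain Il12rb2 and most genes tested for tissue retention and cytotoxic granules were higher, as were the S100, galectin and annexin genes of effector memory cells, and genes of naive cells were lower. An Ifng, Cxcr6 or Tbx21 UMI was found in 260, 423 and 594 conventional CD4 T cells of replicates 1, 2 and 3. Of these 121, 173 and 271 were members. The rest lay among the other cells, kept out of the members by a UMI of Il21, Cxcr5, Bcl6, Nt5e or Eomes. These other cells are a mixture, and fewer genes of most of these lists passed against its follicular helper-like and Nt5e cells taken alone. UMIs were summed for each library and group, and 9356 genes were tested by edgeR's quasi-likelihood method in a model that also held a term for each library, at a Benjamini-Hochberg adjusted p of 0.05. The 16 genes of the rule were left out. Of the genes tested, 597 (6.38%) were higher in the members and 458 (4.9%) were lower. Without replicate 3 the counts were 361 and 211, without replicate 2 they were 446 and 270, and DESeq2 gave 298 and 166. Of the genes named below, Ccr8, Fosb, Gata3, Igkc, S1pr4 and Tcrg-C1 did not pass without replicate 1. Birc5, Ccl3, Ccl4, Ccr8, Cd200, Cd5, Cish, Egr1, Iigp1, Il4ra, Il7r, Irf4, Itgal, Jak1, Nr4a3, Nrp1, Socs1, Stat3 and Zeb2 did not pass without replicate 2, and Cd74, Fas, Fosb, Hmgb2, Irf4, Jak1, Mki67, Pmaip1, Rgs2 and Stat5b did not pass without replicate 3. Tigit passed without replicate 1. DESeq2 did not call 30 of the genes named, and those outside the lists just given were Batf, Gbp2, Gzma, Lag3, Lrrc32, Maf and Nfil3. On sums of cells thinned to 1000 UMIs some of the genes named were too low to be tested. Of the others 85 kept their direction and side of the threshold and 27 did not pass. Those outside the lists were Bach2, Batf, Ifngr1, Ighm, Igtp, Itgb1, Itgb7, Lrrc32, Pou6f1, Rras2 and Sostdc1. With the study's limits on cells 21 did not pass, with Gzmb, H2-Aa, Ifngr1, Il2ra, Itgb7, Lrrc32 and Sostdc1 outside the lists. With the gate read from thinned cells 16 did not, among them Anxa1, Cxcr3, Il10 and Itgb7. Without the library as a block only 17 and 1 passed, and 113 of the genes named did not. Without scaling by the trimmed mean of M-values (TMM) the counts were 757 and 288, with the median of all genes moved from -0.01 to 0.08 on the log2 scale. Ribosomal genes took a median of 24.3, 25.0 and 27.6% of UMIs per cell in the members of replicates 1, 2 and 3 and 28.3, 34.5 and 34.5% in the others, and the part of this in the result was not tested.

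**Figure D3:**
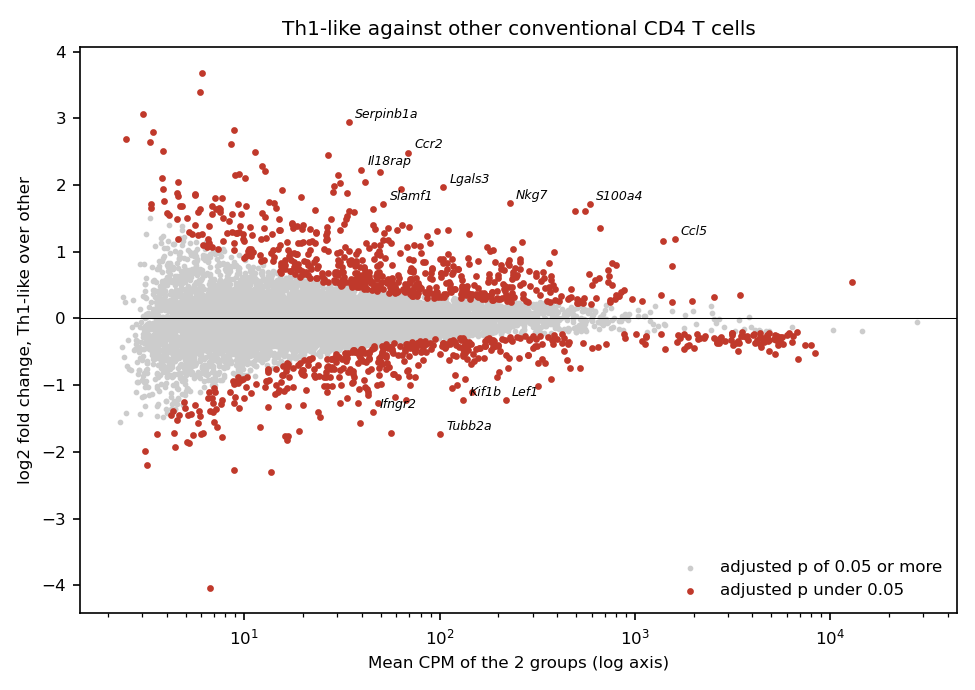
Each point is 1 of 9356 genes, with its mean CPM over the members and the other conventional CD4 T cells on a log axis (horizontal) and its log2 fold change (vertical). Red marks the 597 higher and 458 lower genes, and Serpinb1a and Ccr2 stand highest among the labelled genes.

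Of 12 Th1 genes that the rule did not use, 10 were tested and 9 were higher in the members, with a median log2 fold change of 1.25 over the 10, against -0.01 over all genes tested. The fixed list of Th1 cytokine sensing and factors had 7 of 10 tested genes higher and none lower, with a median of 0.82. Il18r1, the binding chain of the interleukin-18 receptor, stood at 144, 146 and 189 CPM in the members and at 63.7, 58.0 and 62.7 CPM in the other cells. Its accessory chain Il18rap stood at 65.9, 49.6 and 81.3 CPM against 16.1, 11.3 and 13.5 CPM. The 2 groups did not overlap for either chain, and the log2 fold changes were 1.32 ± 0.10 and 2.23 ± 0.16 (SE), with edgeR adjusted p of 3.3e-11 and 7.3e-12.

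Il12rb2, the inducible chain of the interleukin-12 receptor, stood at 26.1, 29.6 and 50.9 CPM in the members and at 4.20, 12.6 and 14.4 CPM in the others, again without overlap, with a log2 fold change of 1.62 ± 0.20 (SE). Stat4, which carries the interleukin-12 signal, was at 590, 677 and 562 CPM against 567, 504 and 505 CPM and did not pass (log2 fold change 0.13 ± 0.07 SE, edgeR adjusted p = 0.31). Il12rb1 and Hlx were too low to be tested in this comparison. Of the interferon-gamma receptor chains, Ifngr1 was higher in the members by 0.39 ± 0.08 on the log2 scale, whereas Ifngr2, the signalling chain, was lower by -1.40 ± 0.16 (SE), at 24.5, 20.9 and 34.7 CPM against 42.0, 74.1 and 78.0 CPM. The Nt5e cells among these others stood at 19.0, 28.1 and 19.1 CPM of Ifngr2, which overlapped the members.

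Among the factors, Runx3, which works with T-bet at Ifng and silences Cd4 in CD8 T cells, stood at 262, 293 and 237 CPM in the members and 184, 127 and 130 CPM in the others (log2 fold change 0.80 ± 0.09 SE). Bhlhe40 (0.85 ± 0.09) and Id2 (1.14 ± 0.08), which act in effector T cells, were higher too. Prdm1, which encodes the effector factor Blimp-1, showed the largest change of 12 effector and exhaustion factors, with 50.6, 85.3 and 64.5 CPM against 19.5, 18.6 and 11.4 CPM and a log2 fold change of 2.05 ± 0.16 (SE). Of these 12 factors 8 were higher and none lower, with a median log2 fold change of 0.51. The others among the 8 were Maf, Zeb2, Batf, Irf4, Ikzf3, Rora and Nfil3, while Tox stood at -0.11 ± 0.10.

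Of 10 tested chemokine receptors 5 were higher, 1 was lower and 4 did not pass. Ccr2, the receptor that draws cells to inflamed tissue along CCL2, stood at 115, 121 and 117 CPM in the members and at 20.7, 18.5 and 20.4 CPM in the other cells, with a log2 fold change of 2.49 ± 0.12 (SE) and an edgeR adjusted p of 1.5e-15. Cxcr3, which T-bet induces, was higher by 0.84 ± 0.10 on the log2 scale (SE). Cx3cr1 and Ccr8 were also among the higher receptors, and Ccr7, the lymph node homing receptor, was the lower one. Cx3cr1 was low, at 12.3, 6.97 and 25.5 CPM, and 1 cell held 31.7% of its UMIs.

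Ccl5 itself was the most abundant of the Th1 genes, at 2142, 2866 and 1732 CPM in the members and 910, 1270 and 662 CPM in the others (log2 fold change 1.18 ± 0.07 SE). After thinning to 1000 UMIs, 32.9% ± 0.648 of members, 11.4% ± 1.02 of the others and 1.75% ± 0.307 of B cells had a Ccl5 UMI (SD, n = 3). The unthinned shares were 45.6%, 20.9% and 8.94%. The thinned difference of 21.5 points was positive in 3 of 3 libraries, where the exact two-sided sign-flip test cannot give a p under 0.25. Of the 5 chemokine ligands tested, Ccl5 was higher and Ccl3 and Ccl4 were lower, with a median log2 fold change of -0.78. Ccl3 was lower by -2.30 ± 0.43 (SE), but its change was -0.43 without replicate 2 and 1.53 with the gate read from thinned cells. Ccl4 was lower by -1.57 ± 0.33 on the log2 scale, with 914 of its 1939 UMIs in the other cells held by 1 cell, its change was -0.34 without replicate 2, and with the gate read from cells thinned to 1000 UMIs it was higher in the members by 2.47.

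Of 11 tested cytotoxic granule genes 10 were higher and none lower, with a median log2 fold change of 1.23. Nkg7 stood at 463, 339 and 245 CPM in the members and at 174, 97.1 and 54.4 CPM in the others, without overlap (log2 fold change 1.72 ± 0.10 SE, edgeR adjusted p = 4.9e-14). Gzmk (1.23 ± 0.12), the cathepsin Ctsw (1.13 ± 0.10) and the granzyme inhibitors Serpinb9 (1.33 ± 0.12) and Serpinb6b (1.40 ± 0.13) rose with it. Granzymes A and B were carried by few cells. Gzmb, at 76.6, 14.8 and 47.1 CPM, was found in 39 of 565 members, and 1 member held 73 of the 258 Gzma UMIs. Prf1, which encodes perforin, was at 4.6, 4.36 and 7.04 CPM and did not pass the threshold. Fasl, the other killing route of Th1 cells, was higher by 0.99 ± 0.12 (SE).

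The promoters of 2 of these Th1 genes are shown because they carry core motifs of the factor families named above. The 250 bases before the start of each gene were read from the RefSeq promoters (GRCm38.p6) and searched on both strands for TCACACC, the T-box core, and TGTGGTT, the Runx core, which share the stretch CACA when the latter is read on its other strand. Of the 12 Th1 genes outside the gate 9 were matched by symbol. The T-box core was in 1 of them, Nkg7, and in 3.845% of all 27025 genes, and the Runx core was in 1, Runx3, and in 5.08% of all genes. Capitals mark the motif, which lies on the opposite strand in both windows. The Nkg7 window is chr7:43436888-43437137 and the Runx3 window chr4:135120395-135120644, both on the plus strand.
Nkg7: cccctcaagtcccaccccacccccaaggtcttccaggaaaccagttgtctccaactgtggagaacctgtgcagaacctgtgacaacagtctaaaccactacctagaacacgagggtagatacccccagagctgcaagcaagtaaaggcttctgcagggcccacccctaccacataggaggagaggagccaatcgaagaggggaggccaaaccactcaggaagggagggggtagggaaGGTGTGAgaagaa
Runx3: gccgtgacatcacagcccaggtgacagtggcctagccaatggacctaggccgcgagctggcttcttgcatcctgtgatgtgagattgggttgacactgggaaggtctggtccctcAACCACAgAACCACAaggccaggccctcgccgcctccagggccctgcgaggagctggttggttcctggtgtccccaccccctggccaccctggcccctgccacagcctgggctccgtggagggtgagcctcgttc
The Nkg7 window holds 1 match, which begins at base -13 from the RefSeq start, and the Runx3 window holds 2, at -135 and -127. The GENCODE model of Nkg7 starts earlier, at base 43437073, so by that model the match lies inside the gene. A match of these letters is a description and not a binding site.

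All 12 effector memory cytoskeleton genes were higher, with a median log2 fold change of 1.03. S100a4 stood at 1238, 721 and 773 CPM in the members and at 368, 200 and 225 CPM in the others, with a log2 fold change of 1.71 ± 0.07 (SE) and the smallest adjusted p of the genes named in this comparison (edgeR, 6.3e-17). S100a6 and Lgals1 were each higher by 1.61 (SE 0.08 and 0.08), and Lgals3, which encodes galectin-3, stood at 184, 161 and 160 CPM against 41.0, 30.7 and 48.4 CPM. Crip1, Ahnak, Vim, Emp3, Anxa1, Anxa2, S100a10 and S100a11 made up the rest. After thinning, 36.9% ± 13.8 of members and 9.96% ± 5.10 of the others had an S100a4 UMI, against 0.870% ± 0.623 of B cells (SD, n = 3), and the unthinned shares were 57.5%, 18.6% and 2.58%.

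Genes of naive and central memory T cells moved the other way. Of 11 tested 10 were lower and none higher, with a median log2 fold change of -0.75. Lef1, a factor of naive T cells, stood at 64.3, 131 and 216 CPM in the members and at 154, 363 and 380 CPM in the others (log2 fold change -1.22 ± 0.11 SE), so each library showed the drop although the ranges overlapped across libraries. Tcf7 was lower by -0.53 ± 0.09, Bach2 by -0.83 ± 0.14 and Il7r by -0.30 ± 0.08 on the log2 scale (SE), while Id3 did not pass. Of 6 egress and homing genes 5 were lower, with S1pr1 and its activator Klf2 each lower by -0.67 (SE 0.08 and 0.09). S1pr4 was higher by 0.53 ± 0.14. Among 12 genes of tissue retention and adhesion 9 were higher, Rgs1 most clearly, at 899, 1109 and 866 CPM against 458, 330 and 301 CPM, with the integrin chains Itga4, Itgb1, Itgb7, Itgal and Itgb2 and with Cd44, while Rgs2 was lower by -0.36 ± 0.08 (SE). Cd69, the usual marker of residency and recent activation, stood at 79.7, 52.3 and 70.4 CPM against 78.5, 55.5 and 60.3 CPM and did not pass the threshold.

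Inhibitory receptors were higher in the members for 7 of 9 tested genes, with a median log2 fold change of 0.60. Havcr2, which encodes TIM-3, a receptor of terminal Th1 cells, stood at 95, 112 and 95.9 CPM in the members and at 34.6, 19.1 and 24.9 CPM in the others (log2 fold change 1.94 ± 0.14 SE, edgeR adjusted p = 1.2e-11). Lag3 stood at 113, 337 and 150 CPM against 108, 83.2 and 54.7 CPM and was higher by 1.27 ± 0.16, with replicate 1 showing the smallest gap. Entpd1 was higher by 1.54 ± 0.17 and Pdcd1, which encodes PD-1, by 0.75 ± 0.09 (SE), and Ctla4, Cd200 and Cd5 were higher by less. Tigit, at 33.7, 34.0 and 20.6 CPM against 31.1, 20.6 and 11.2 CPM, did not pass (edgeR adjusted p = 0.065). Of 14 costimulatory genes 8 were higher and none lower, with a median of 0.31, led by Slamf1 at 1.72 ± 0.13 and with Icos at 0.55 ± 0.07.

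The remaining named genes fall outside these groups. Serpinb1a, an inhibitor of granule proteases, had the largest rise of the named genes, at 2.95 ± 0.22 (SE), but its level ran from 15.3 CPM in replicate 1 to 56.6 and 110 CPM in replicates 2 and 3, against 6.42, 8.71 and 8.76 CPM in the others, and only 45 members carried it. Socs2, a brake on cytokine receptors, stood at 95, 94.9 and 54.7 CPM against 27.2, 14.6 and 11.9 CPM. Lilr4b, an inhibitory immunoglobulin-like receptor, Camk2n1, an inhibitor of calmodulin-dependent kinase, and Sytl2, which tethers secretory vesicles, were higher by 2.14 ± 0.18, 1.88 ± 0.16 and 1.65 ± 0.15 (SE). Downward, Tubb2a, a beta-tubulin, stood at 35.2, 56.6 and 57.4 CPM in the members against 87.9, 187 and 182 CPM. Other lower genes were Utp14b, Ndrg3, Kif1b, Kif23, Sh3bp5, Pou6f1, Trib2, Cd55, Tdrp, Rras2 and Txk, with log2 fold changes from -1.27 to -1.04.

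Other groups were mixed. Of 14 interferon-gamma response genes none was higher and 4 were lower (Gbp2, Iigp1, Igtp and Socs1), with a median of -0.26. Of 10 type I interferon genes none passed in either direction, of 12 immediate early and heat shock genes only Fosb was higher, and of 12 cell cycle genes Mki67, Birc5 and Hmgb2 were higher, although Mki67 was lower by -1.26 with the gate read from thinned cells. Of 11 cytokine genes tested 3 were higher (Il10, Fasl and Tgfb1) and none lower, with a median of 0.27. Tnf (7.66, 13.1 and 9.21 CPM) and Il2 (7.66, 4.36 and 9.21 CPM) did not pass. Il10, which effector Th1 cells can make to restrain themselves, stood at 30.6, 49.6 and 34.7 CPM against 17.0, 13.5 and 13.3 CPM (log2 fold change 1.37 ± 0.18 SE). Markers of other helper fates were not absent. Of 5 tested, Gata3 was higher by 0.40 ± 0.12 and Il1rl1, the interleukin-33 receptor, by 1.92 ± 0.28, Lrrc32, which encodes the TGF-beta docking protein GARP, was lower by -1.77 ± 0.30 (SE), and Il4, Il5, Il13, Il17a and Il17f were too low to be tested.

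Further lists can be given by counts. Of 11 antigen receptor response genes Egr1, Irf4 and Dusp2 were higher and Nr4a3 lower, with a median of 0.07. Of 10 anergy-linked genes Lag3 and Nrp1 were higher. Of 12 JAK, STAT and SOCS genes Stat3, Socs2 and Cish were higher and Jak1, Stat5b and Socs1 lower. Of 10 survival genes Bcl2l1, Bcl2a1b, Bcl2a1d and Pmaip1 were higher and Fas was lower. Of 6 common gamma chain receptors Il2ra and Il2rb were higher and Il4ra and Il7r lower, of 5 lectin-like receptors all but Klrk1 were higher, and of 8 follicular helper genes outside the gate Cd200, Pdcd1, Icos and Maf were higher and Sostdc1 lower. These lists share genes with those above, and each is to be read against the 6.38% of genes higher and 4.9% lower in all.

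Markers of other cell types were higher in the members for 2 lists. Of 3 tested gamma-delta genes Trgv2 (1.69 ± 0.42) and Tcrg-C1 (1.71 ± 0.56) were higher, with a summed list level of 29.1, 22.6 and 36.8 CPM against 9.14, 19.8 and 11.3 CPM and Trdc the most abundant of the list. A UMI of Ncr1, Klrb1c, Zbtb16, Trdc or Trgv2 was found in 54 members (9.56%), and with such cells left out of all groups 539 genes were higher and 401 lower. Of 4 tested dendritic genes Xcr1, H2-Aa and Cd74 were higher. The 13 members with 20 or more UMIs of H2-Aa, H2-Ab1, H2-Eb1 and Cd74 held 93.4, 83.0 and 97.4% of the MHC class II UMIs of the members, and with such cells left out of all groups H2-Aa stood at -0.08 and Cd74 at -0.44 on the log2 scale (both were lower, by -1.55, with the gate read from thinned cells) while 585 genes were higher and 452 lower.

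The innate-like list (Zbtb16, Klrb1c and Klra1), none of it high enough to be tested, summed to 27.6, 1.74 and 13.5 CPM in the members against 5.93, 4.28 and 4.26 CPM in the others, so it was higher in replicates 1 and 3 and lower in replicate 2. Cells with a Zbtb16 or Klrb1c UMI were among those left out in the count without innate markers given above. Klra1 was not used to leave cells out, and its part in the results was not tested. None of 3 tested natural killer genes passed, the list summing to 106, 13.9 and 85.6 CPM in the members against 75.3, 34.6 and 53.9 CPM, with Tyrobp the most abundant. Of the B-cell list Ighm and Igkc were lower, of the macrophage list Lyz2 was lower with C1qc at 0 UMIs in the members, and no plasma cell, islet endocrine or exocrine gene passed. A doublet caller marked 31 members (5.49%), and without marked cells 570 genes were higher and 434 lower.

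The comparison group was a mixture, so the members were also set against 3 of its parts in 1 fit of 5 groups over 8844 genes. The comparisons share the member sums and so are not independent of each other. The marker-negative cells differ from the members by the gate alone, the follicular helper-like cells (1573) carried Il21, Cxcr5 or Bcl6, and the Nt5e cells (595) carried Nt5e, a marker of anergic CD4 T cells, without those 3. Against the marker-negative cells 979 genes (11.1%) were higher in the members and 810 (9.16%) lower by edgeR's test. Against the follicular helper-like cells 224 (2.53%) were higher and 151 (1.71%) lower, and against the Nt5e cells 102 (1.15%) and 62 (0.701%).

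The lists differed in how many of their genes passed against each of the 3 groups. Cytotoxic granule genes were higher for 9, 8 and 6 of 11 tested against the marker-negative, follicular helper-like and Nt5e cells in that order, and effector memory cytoskeleton genes for 12, 10 and 6 of 12. Tissue retention genes were higher for 8, 4 and 1 of 12, with 0, 1 and 1 lower. Chemokine receptors were higher for 5, 2 and 2 of 10, with 1 lower each time. Inhibitory receptors were higher for 8, 3 and 2 of 9, with medians of 1.71, 0.26 and 0.33, and costimulatory genes for 7, 3 and 1 of 14. Genes of naive and memory cells were lower for 10, 4 and 1 of 11, with medians of -1.28, -0.42 and -0.18, and egress genes for 5, 2 and 1 of 6. Of 12 cell cycle genes 6, 0 and 0 were higher. Genes of Th1 cytokine sensing and factors were higher for 8, 6 and 5 of 11 and none was lower, with medians of 1.22, 0.87 and 0.60. Of 14 interferon-gamma response genes 7, 0 and 0 were lower, with medians of -0.62, 0.04 and 0.02, and 1 was higher against the follicular helper-like cells. The 3 groups differ in cell number, and the differences between these counts were not tested.

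Against the marker-negative cells, 11 of the 11 tested Th1 genes outside the gate were higher, with a median log2 fold change of 1.48. Ccr2 and Nkg7 led the named genes at 3.82 ± 0.29 and 3.71 ± 0.31 (SE), followed by Serpinb1a, Socs2 and Prdm1, and Ccl5 was higher by 3.15 ± 0.33. Ccl4, lower in the main comparison, was higher here by 2.97 ± 1.00 (SE), which did not pass without replicate 1, and of the 5 chemokine ligands 2 were higher and none lower, with a median of 2.86. Stat4 stood at 590, 677 and 562 CPM against 534, 300 and 307 CPM and was higher by 0.54 ± 0.16, a difference that did not pass without replicate 2 or without replicate 3. Igfbp7 was also named by the rule, and 1 cell held 64 of its 121 UMIs in the members. Igfbp4, Pik3ip1, Ifngr2, Tubb2a and St8sia6 were lower by -2.03 to -2.58. Pdcd1 stood at 193, 391 and 349 CPM against 78.1, 61.0 and 66.1 CPM (log2 fold change 2.05 ± 0.19 SE). Without TMM scaling the counts were 1878 and 424 and the median of all genes moved from -0.01 to 0.20. Without replicate 3 the counts were 458 and 354, without replicate 2 they were 508 and 348, and without the library as a block 362 and 229.

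Against the follicular helper-like cells, 8 of 11 tested Th1 genes outside the gate were higher, with a median of 1.51. Il18rap stood at 65.9, 49.6 and 81.3 CPM in the members and 21.0, 15.5 and 12.5 CPM there (log2 fold change 2.08 ± 0.22 SE), and Serpinb1a, Ccr2, Prdm1, Nkg7 and Lgals3 were higher by 1.83 to 2.67. Cxcr3 (0.51 ± 0.16, edgeR adjusted p = 0.084), Stat4 (-0.15 ± 0.16) and Pdcd1 (0.26 ± 0.17) did not pass. Of 8 follicular helper genes outside the gate none was higher and 3 were lower, and Sostdc1 stood at 30.6, 21.8 and 21.7 CPM against 100.1, 78.1 and 57.8 CPM. Ccl4, Ppp2r3a, Utp14b, Tubb2a and Pakap were the other named genes that were lower. Without replicate 3 the counts of higher and lower genes were 76 and 38, without replicate 2 they were 121 and 38, without the library as a block 28 and 7, and without the filter on low counts 340 and 290. Ccl4 did not pass without replicate 2, and Cxcr3 did without replicate 1.

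The Nt5e cells gave the fewest genes that passed among the 3 groups compared. Of 11 tested Th1 genes 7 were still higher, with a median of 0.89, and Ccl5 stood at 2142, 2866 and 1732 CPM against 303, 554 and 434 CPM (log2 fold change 2.30 ± 0.32 SE). Prdm1, Nkg7, Havcr2 and Serpinb1a were higher by 1.94 to 2.44. Il1b was named by the rule, but it is a myeloid cytokine found in 13 members, with 84 of 239 UMIs in 1 cell. Of 3 tested dendritic genes 2 were higher in the members, with a median of 1.73. Without the MHC class II-rich cells 82 genes were higher and 60 lower. The B-cell gene Igkc stood at 1827, 94.6 and 54.9 CPM in the Nt5e cells of replicates 1, 2 and 3, so replicate 1 stood apart there. Cxcr3 (0.21 ± 0.17), Fasl (0.53 ± 0.14, edgeR adjusted p = 0.065) and Pdcd1 (0.33 ± 0.18) did not pass. Nrn1, which encodes neuritin, stood at 72, 72.3 and 48.8 CPM against 129, 158 and 176 CPM (-1.39 ± 0.28), and Ppp2r3a, Utp14b, Aff3, Plagl1 and Ptch1 were also lower. Of the 5 chemokine ligands Ccl5 alone was higher and none was lower, with a median of 1.96. Without replicate 3 only 10 genes were higher and 5 lower, without replicate 2 they were 45 and 22, without replicate 1 105 genes were lower, without the library as a block 2 and 1 passed, and without the filter on low counts 253 and 139. Of the genes named here that had passed, Ccl5 and Prdm1 alone still did so without replicate 3.

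The members were not the highest in every Th1 gene. The 205 Eomes cells, which carry Eomes, the T-box relative of T-bet, stood at 9168, 14630 and 8306 CPM of Ccl5 and at 1035, 999.7 and 551.5 CPM of Nkg7, above every library of the members in both. Il18r1 and Il12rb2 ran the other way, with 36.97 ± 17.6 and 6.77 ± 4.39 CPM in the Eomes cells against 160 ± 25.4 and 35.5 ± 13.5 CPM in the members (SD, n = 3), and these differences were not tested. In Foxp3 T cells Ccr2 (120 ± 13.2 CPM) and Il18r1 (153 ± 34.2 CPM) were within the range of the members or beside it, at 118 ± 3.12 and 160 ± 25.4 CPM.

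**Figure D4:**
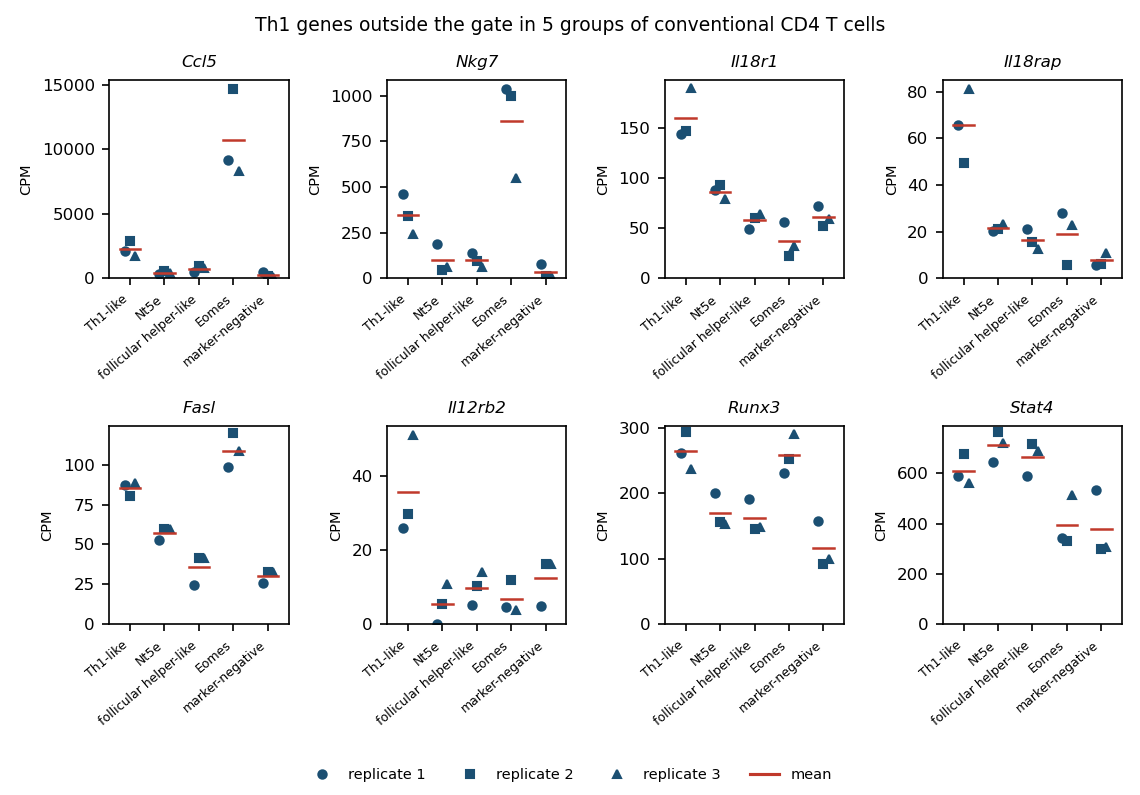
Level in CPM (vertical axes) of 8 Th1 genes outside the gate in 5 groups of conventional CD4 T cells (horizontal axes), with 1 symbol per library and a line at the mean. The Th1-like cells lie above the other groups in Il18r1, Il18rap and Il12rb2, the Eomes cells are higher in Ccl5, Nkg7 and Fasl, and Stat4 overlaps between the Th1-like, Nt5e and follicular helper-like groups.

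Among the members, cells admitted by Cxcr6 and cells admitted by Ifng differed. The 367 members with Cxcr6 and no Ifng UMI (68, 116 and 183 in replicates 1, 2 and 3) were set against the 81 with Ifng and no Cxcr6 UMI (24, 22 and 35). The former carried more RNA of Ccl5, Ccr2 and Havcr2, and the latter more of Tnfsf8, Tnfsf11 and Cd69. By edgeR's test 99 of 3819 genes (2.59%) were higher in the Cxcr6 cells and 104 (2.72%) higher in the Ifng cells. DESeq2 gave 16 and 21, and the fit without the library as a block gave 26 and 25. Sums of thinned cells gave fewer still, as listed in the closing section. Of the genes named from this comparison, 9 did not pass with DESeq2 and 9 without the block, while 19 kept their side of the threshold each time. On thinned sums 7 did not pass and 4 kept their side, and the rest were too low to be tested. Without replicate 2 the counts were 52 and 54 and without replicate 3 they were 55 and 64.

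On the Cxcr6 side, Ccl5 stood at 2909, 3110 and 1998 CPM, against 989, 320 and 472 CPM in the Ifng cells (log2 fold change 2.21 ± 0.17 SE, edgeR adjusted p = 5.4e-21). Ccr2 stood at 157, 142 and 139 CPM against 48.0, 5.93 and 13.1 CPM, and Il18r1 at 219.5, 180.1 and 219 CPM against 86.4, 47.5 and 91.7 CPM. The 2 kinds of member did not overlap in any of these genes. Plac8, a cysteine-rich protein of leukocytes, had 308 UMIs in the Cxcr6 cells and 0 of 501598 UMIs in the Ifng cells. With 3 counts over the group as the limit, the pooled UMIs give a nominal bound of 21.9-fold. It takes each UMI as an independent draw, which UMIs of the same cell are not, so it describes the pooled counts only. Without the MHC class II-rich cells, 188 UMIs remained in the Cxcr6 cells, the nominal bound was 14.2-fold, and the gene was too low to be tested. Havcr2 (2.12 ± 0.39), Prdm1 (1.67 ± 0.46), Il18r1 (1.41 ± 0.27), Nkg7 (1.02 ± 0.23) and Pdcd1 (0.93 ± 0.22) were higher on this side as well, although Nkg7, Pdcd1 and Prdm1 did not pass without replicate 2. H2-Aa, H2-Ab1, H2-Eb1 and Cd74 were higher by 4.17 to 4.76, but 10 MHC class II-rich cells lay among the Cxcr6 cells and 0 among the Ifng cells, and without them Cd74 stood at -0.51 while 79 and 103 genes passed.

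On the Ifng side, Tnfsf8, which encodes CD30 ligand, stood at 1200, 1234 and 839 CPM, against 308, 251 and 250 CPM in the Cxcr6 cells (log2 fold change -2.06 ± 0.18 SE, edgeR adjusted p = 5.3e-18). Tnfsf11, which encodes RANK ligand, stood at 547, 326 and 96.1 CPM against 68.2, 64.8 and 73.0 CPM, and Cd69 at 173, 77.1 and 240 CPM against 65.2, 45.4 and 39.3 CPM. No library of the Ifng cells overlapped the Cxcr6 cells in these 3 genes, but Cd69 did not pass without replicate 3 (log2 fold change -1.16). Nrn1 (-2.62 ± 0.30), Rnd3 (-2.97 ± 0.44) and the early genes Fosb (-2.63 ± 0.35), Jun (-2.20 ± 0.35) and Egr1 (-1.70 ± 0.33) lay on the same side. Stat4 was higher in the Ifng cells, at 845, 777 and 786 CPM against 492, 656 and 528 CPM (-0.58 ± 0.17), which did not pass without any 1 of the 3 replicates. The fixed lists were mixed, and of 8 genes of Th1 cytokine sensing and factors 2 were higher on each side. Of 5 chemokine receptors 2 were higher in the Cxcr6 cells and 1, Ccr7, in the Ifng cells (-1.06 ± 0.18), of 7 inhibitory receptors 3 and 1 (Cd200, -1.11 ± 0.20), and of 12 costimulatory genes 1 and 3. Of 8 antigen receptor response genes 4 and of 10 immediate early genes 4 were higher in the Ifng cells and none in the Cxcr6 cells. Not every TNF family ligand followed Tnfsf8, since Ltb was higher in the Cxcr6 cells by 1.15 ± 0.22, which did not pass without replicate 2, and Fasl did not pass (0.16 ± 0.30). Nts, Tnfsf4 and Igfbp7 were named too, but only 6, 9 and 9 Ifng cells carried them.

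The 71 members with both genes stood at 2687, 5742 and 2438 CPM of Ccl5, and the 46 with Tbx21 alone at 72.1, 668 and 407 CPM. In Nkg7 the 2 sets stood at 599 ± 44.9 and 60.9 ± 46.1 CPM (SD, n = 3), and in Ccr2 at 175 ± 27.4 CPM and 2 UMIs in all. Cells with both genes were thus within the range of the Cxcr6 cells or above it in these 3 genes, and cells with Tbx21 alone were below the Ifng cells in mean level, from sums of 12 to 21 cells a library.

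**Figure D5:**
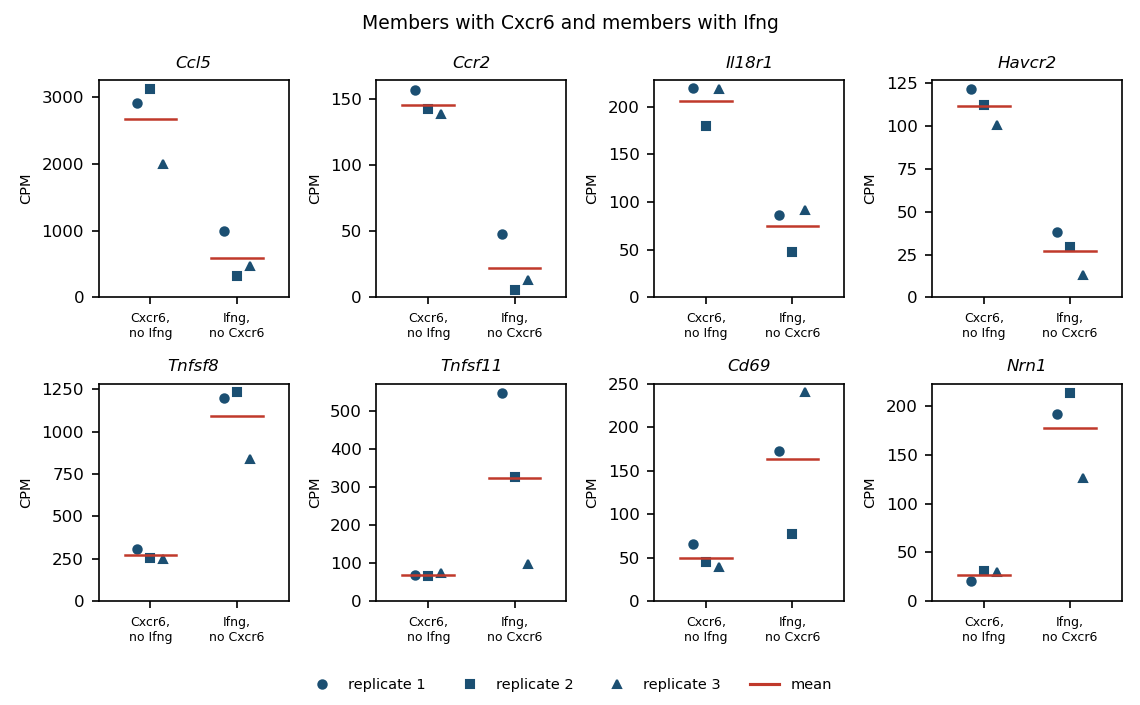
Level in CPM (vertical axes) of 8 genes in members with Cxcr6 and no Ifng UMI and in members with Ifng and no Cxcr6 UMI (horizontal axes), with 1 symbol per library and a line at the mean. The 4 upper genes are higher in the Cxcr6 cells and the 4 lower genes in the Ifng cells, with no overlap between the 2 kinds of cell in any panel.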

How the data were processed

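Live CD45+ islet cells of 3 libraries were measured by droplet single-cell RNA sequencing. Per the labels and the methods, the deposited files hold raw counts, the UMIs of 32285 genes in each cell, made by the authors with Cell Ranger 6.0.1 on mm10. No normalization or cell annotation of the authors was used. The total counts were 33851381, 74775394 and 80806452 UMIs.

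Cells with at least 1000 UMIs and under 10% mitochondrial UMIs were kept, and the gate was applied to raw UMIs. The members and gene lists were chosen with earlier results of these data known. UMIs were summed per library and group and fitted with edgeR 4.0.16 in R 4.3.3 (filterByExpr, TMM, glmQLFit, glmQLFTest) with the library as a block, since the groups of a library come from the same pooled mice. Deviations from the group means correlated within libraries with r from 0.43 to 0.54 (3 pairs) and between libraries with r from -0.45 to 0.14 in the fit of 2 groups. In the fit of 5 groups the ranges overlapped, at 0.12 to 0.64 (30 pairs) and -0.55 to 0.37. Cells are not replicates, and the 3 libraries of pooled mice are. The method moderates the error of each gene with an estimate shared over genes. A small p therefore need not mean that the libraries agree. Between Cxcr6 and Ifng members Gzma passed at -1.75 on the log2 scale (edgeR adjusted p = 1.8e-04), although 2 of 3 libraries were higher in the Cxcr6 cells. Benjamini-Hochberg adjustment covered every gene tested. SE is the log2 fold change over the square root of F. CPM is UMIs per 1000000 UMIs of the summed cells, as a mean of 3 libraries where 1 value is given.

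Genes were named where they passed 0.05, moved the same way in 3 of 3 libraries and reached 50 CPM in the higher group, taking the 15 largest changes in each direction of the main comparison and 6 in the others. Genes of the 33 lists may be named as well. Ribosomal, mitochondrial, immunoglobulin, receptor V genes and unnamed models were left out. Plac8, H2-Ab1 and H2-Eb1 came from that rule.

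Doublets were kept in the main analysis, and an alternative removed the 7.6% of cells with the highest Scrublet score (scanpy 1.11.5). In simulated counts for the main comparison (9136 genes), the test recovered 93.75% of genes simulated with a log2 fold change of 2 and 40.2% of those with 1, with 7 false calls. For the Cxcr6 and Ifng members (3654 genes) 94.3% and 24.7% were recovered, with 4 false calls. The simulation gave every gene the same dispersion and a library effect common to both groups. It held no gene concentrated in single cells, so its false calls do not measure those in the data. Alternatives used DESeq2 1.42.0, other filters and gates, thinned cells and each library left out. B cells had 2 or more Cd79a UMIs and no Cd3 UMI. Coordinates are on GRCm38. Results on some genes that the rule or the lists hold are not reported here, and they remain in the counts and medians of the lists.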

Additional observations from a re-analysis of the deposited data

How the results depend on the processing

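Each gene value in 5 comparisons was recomputed under up to 16 other settings. A gene too low to be tested under a setting gave no value there and is not counted. Of 2674 such values for 205 gene results, 2277 kept their direction and their side of the threshold, 357 kept the direction and no longer passed, 13 newly passed and 27 changed sign. The share of Th1-like cells stayed between 7.92 and 11.7%, and leaving out 1 replicate gave 9.04 to 11.7%.

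In what follows the first count is of genes higher and the second of genes lower. The model without the replicate block gave 17 and 1 for the comparison with other conventional CD4 T cells, 362 and 229 with marker-negative, 28 and 7 with follicular helper-like and 2 and 1 with Nt5e cells, and 26 and 25 between Cxcr6 and Ifng members. The main comparison had 298 and 166 with DESeq2, 390 and 297 with the study's limits on cells, 189 and 217 on thinned sums, 356 higher with the gate on thinned cells and 288 lower without TMM scaling. Without that scaling the others had 1878 and 424 (marker-negative), 38 lower (Nt5e) and 60 lower (Cxcr6 against Ifng). Without the filter on low counts there were 340 and 290 (follicular helper-like) and 253 and 139 (Nt5e). Cxcr6 against Ifng members had 16 and 21 with DESeq2 and 11 and 12 on thinned sums. Leaving out 1 replicate gave 361 to 683 and 211 to 543 in the main comparison, 458 to 1058 and 348 to 905 for marker-negative, 76 to 264 and 38 to 226 for follicular helper-like, 10 to 122 and 5 to 105 for Nt5e cells, and 52 to 96 and 54 to 101 within the members. The causes were not tested.

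Signs changed as follows on the log2 scale. With the gate on thinned cells, which held 206 members, Ccl3 was 1.53, Ccl4 2.47, Cd74 -1.55, H2-Aa -1.55, Mki67 -1.26, Hmgb2 -0.16, Itgb1 -0.12, Prf1 1.04 and Tox 0.12. With the study's limits Ccl4 was 0.044 and Tox 0.10, and between 2000 and 6000 UMIs Tox was 0.11. Without cells with innate markers Cd74 was -0.75 and H2-Aa -0.45, and without MHC class II-rich cells, a setting chosen after seeing the data, Cd74 was -0.44, H2-Aa -0.083 and, between Cxcr6 and Ifng members, Cd74 -0.51. Klrk1 was between -0.13 and 0.57 without 1 replicate, and Fasl between -0.031 and 0.34 in the Cxcr6 cells against the Ifng cells. Cd69, near 0 in the main comparison, was 0.077 without TMM scaling, between -0.11 and 0.077 without 1 replicate, 0.018 without marked doublets, 0.12 on thinned sums, 0.055 with at least 2 gate UMIs, 0.11 without innate markers, 0.029 without myeloid or B-cell RNA and 0.0069 without MHC class II-rich cells.

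Differences in the share of cells with a UMI between members and others, in points, kept their direction at each depth. At 2000 UMIs and unthinned they were 23.0 and 24.7 for Ccl5, 12.9 and 15.9 for Il18r1, 7.44 and 14.9 for Il18rap and -18.8 at 2000 UMIs for Lef1, and unthinned they were 30.8 for Nkg7 and 38.9 for S100a4. For Nkg7 and S100a4 at 2000 UMIs and Lef1 unthinned they moved by less than the spread between libraries. The results rest on 3 libraries from pooled mice, 565 members and a gate that 1 UMI can pass. Low genes such as Il12rb1, Hlx and Il4 were too low to be tested in the main comparison, although Il12rb1 was tested in the fit of 5 groups.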
